A study of Mus musculus with 48 samples.

Results

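The 7 genes described here mark the fields of the mouse hippocampus. Prox1, C1ql2, Calb1 and Dsp are expressed by granule cells of the dentate gyrus, and Wfs1, Fibcd1 and Spink8 by pyramidal cells of the Cornu Ammonis. They were chosen as a list of names, with earlier results of these data known, so the choice was not independent of the data. All 7 of 7 were among the 15782 genes of the normalized tables, each measured by 1 probe. RNA was counted by GeoMx digital spatial profiling. In it, tagged probes for the whole mouse transcriptome are released by light from a chosen part of a fixed brain section, the area of interest (AOI). There were 12 male C57BL/6 mice, 10 weeks old at launch, with 3 mice in each of 4 groups and 1 AOI per mouse in each of 4 regions, which gave 48 AOIs. The regions were CA (labelled Cornu Ammonis 1), DG (dentate gyrus), FCT (frontal cortex) and CT (cortex).

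The FLT-SAL mice received saline and spent 35 days on the International Space Station, and the GC-SAL mice received saline and were kept on the ground in flight-hardware cages on a schedule begun 3 days later. The FLT-BuOE and GC-BuOE mice were kept in the same ways and received BuOE, a manganese porphyrin that acts as a mimic of superoxide dismutase. Each injection under the skin held 0.2 mL at 1 mg/kg, and injections were weekly from 7 days ahead of launch. Tissue of the flown mice also went through return to Earth, since the animals were at the laboratory no later than 20 h after landing. No gene was altered in any group. The AOIs held neuropil and glia beside the principal cells, so fewer cells of a type and less RNA per cell cannot be told apart. The sections of the 3 mice of a group lay on 1 slide, so slide and group cannot be told apart. The limma p-values rest on the spread between mice of 1 group, pooled over the 4 groups (8 residual degrees of freedom) and moderated toward the trend over all genes, which weighed as 57.7 further degrees of freedom in CA and 46.9 in DG.

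The hippocampus is built as a relay: granule cells of the dentate gyrus send mossy fibres to CA3, whose axons reach the pyramidal cells of CA1. Each field keeps its own gene expression throughout life, which is why single genes can serve as labels for it. Prox1 is a homeobox transcription factor needed for the identity of granule cells. C1ql2 is a secreted protein of the C1q family that mossy fibres deposit at their synapses, where it helps to hold kainate receptors. Calb1 (calbindin) is a calcium buffer of mature granule cells, also found in some CA1 pyramidal cells and in interneurons. Dsp (desmoplakin) is a protein of desmosomal junctions whose brain expression is strongest in granule cells. Wfs1 (wolframin) is a membrane protein of the endoplasmic reticulum that is mutated in Wolfram syndrome and is abundant in CA1. Fibcd1 is a membrane receptor that binds chitin and acetylated sugars. Spink8 belongs to the Kazal family of serine protease inhibitors.

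All 7 are protein-coding genes in GENCODE vM21 on GRCm38. C1ql2 lies at chr1:120340582-120343174 on the + strand and Prox1 at chr1:190118035-190170714 on the - strand. Wfs1 lies at chr5:36966104-36989205 on the - strand, Fibcd1 at chr2:31813290-31846005 on the - strand and Spink8 at chr9:109812280-109826633 on the + strand. Calb1 lies at chr4:15881264-15908064 on the + strand and Dsp at chr13:38151294-38198577 on the + strand. The files do not place the probes within the genes.

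Windows upstream of the RefSeq start (GRCm38.p6) were at hand for 5 of the 7 genes. The RefSeq start is not always the GENCODE start. The Wfs1 window, chr5:36988983-36989232, lies mostly inside the GENCODE span of Wfs1 given above. Of the 2 Prox1 windows, that at chr1:190169516-190169765 lies wholly inside the GENCODE span of Prox1. C1ql2 was the dentate gene called higher in FLT-SAL than in GC-SAL in DG. The 250 bases before its start are shown whole, at chr1:120340332-120340581 on the + strand, with the E-box motif CANNTG in capitals. E-boxes are bound by basic helix-loop-helix factors, the class that includes the NeuroD factors of hippocampal neurons.
C1ql2: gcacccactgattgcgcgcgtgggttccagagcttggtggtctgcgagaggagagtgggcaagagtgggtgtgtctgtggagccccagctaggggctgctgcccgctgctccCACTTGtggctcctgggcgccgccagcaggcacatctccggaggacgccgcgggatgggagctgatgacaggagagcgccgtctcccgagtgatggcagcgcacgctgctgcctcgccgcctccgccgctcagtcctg
The stretches of 30 bases around the other E-boxes of the 7 genes' windows are given for comparison, with the motif again in capitals. They lie at chr1:190171025-190171054 and chr1:190170989-190171018 for Prox1 and at chr5:36989135-36989164 for Wfs1, all on the - strand.
Prox1, far: gtcctggaagagCAAGTGtgagccgggcgc
Prox1, near: gcacaacgcccgCAGATGgctcgcggcggc
Wfs1: ccctctcgccgcCATCTGtcctcctggcga
The C1ql2 and Wfs1 windows held 1 E-box each, 138 and 170 bases before the RefSeq start. The E-box of Wfs1 lies inside the GENCODE span of that gene. The Prox1 window at chr1:190170828-190171077 held 2, labelled far and near by their distance from the start of that window's transcript. The windows of Fibcd1 and Dsp and the Prox1 window at chr1:190169516-190169765 held none. For neither Prox1 window were the bases after its start found in a GENCODE transcript of Prox1. Searched on both strands and over 250 bases, CANNTG was found in 66.2% of all 32851 windows, with a median of 1 per window. The GC box GGGCGG was found 4 times in the Wfs1 window, 4 times in the Dsp window and 0 times in the C1ql2 window, and 32.7% of all windows held it. The sequence TATAAA was found in 12.4% of windows, among them 1 window of Prox1, and the cyclic AMP response element TGACGTCA in 1.55% of windows and in none of the 6 windows of the 7 genes. A match describes letters, not a bound site.

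Each AOI held between 322629 and 1579380 probe counts (median 652040), and the total was higher in every FLT-SAL AOI than in every GC-SAL AOI in CA (603927 to 948561 against 370066 to 483270) and in DG (965868 to 1372780 against 496732 to 767199). The total was also higher in every FLT-SAL AOI than in every FLT-BuOE AOI of the same region. The FLT-BuOE totals were 400989 to 503039 in CA and 416744 to 628791 in DG. In FCT they were 484300 to 793099, against 991160 to 1579380 in FLT-SAL. In CT they were 545668 to 916917, against 988810 to 1440631. The part of depth in the differences below was not tested. Levels are Q3-normalized counts, the raw count scaled so that the upper quartile of every AOI is the same, and are not comparable between genes because each probe has its own efficiency. The negative-control probes, which match no mouse transcript, averaged 11.2 ± 1.19 (SD, n = 12) in DG and 18.6 ± 1.38 in CA, and 14.2 ± 1.71 and 14.8 ± 1.15 in FCT and CT. A gene at that level is not distinguishable from background.

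The 4 dentate genes were highest in DG and the 3 CA genes were highest in CA, which is the pattern that field markers are listed for. Prox1 averaged 112 ± 15.5 Q3-normalized counts in DG (SD, n = 12 mice), against 32.2 ± 7.05 in CA and means of 30.8 ± 4.97 (FCT) and 27.2 ± 5.19 (CT) in the cortex. C1ql2 averaged 95.4 ± 17.8 in DG, against 28.3 ± 8.30 in CA, 26.6 ± 8.38 in FCT and 25.2 ± 5.45 in CT. For both genes the lowest DG value, 88.4 and 69.0, lay above the highest value of any other region. Calb1 averaged 47.4 ± 6.12 in DG and 32.6 ± 6.72 in CA, and its ranges in the 2 fields overlapped. Dsp averaged 37.7 ± 9.04 in DG and 23.5 ± 7.38 in CA.

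Wfs1 averaged 91.8 ± 24.1 Q3-normalized counts in CA, against 31.1 ± 5.94 in DG and cortical means of 29.5 ± 5.86 (FCT) and 31.0 ± 6.88 (CT). Fibcd1 averaged 91.3 ± 19.1 in CA and 31.5 ± 6.86 in DG, with cortical means of 21.4 ± 4.65 (FCT) and 20.7 ± 3.97 (CT). Spink8 was the least separated CA gene, with 40.1 ± 7.59 in CA against 23.5 ± 6.32 in DG and cortical means of 23.5 ± 4.09 (FCT) and 23.9 ± 4.44 (CT). Wfs1 within CA ran from 59.3 to 133, and Fibcd1 from 55.4 to 112.

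Set against the negative control of the same AOI, Prox1 and C1ql2 stood 10.1 and 8.62 times above it in DG, and Calb1 and Dsp 4.27 and 3.38 times. Wfs1 and Fibcd1 stood 4.96 and 4.95 times above it in CA, and Spink8 2.16 times. Outside their own field the genes differed in how far they stood above background. Wfs1, Fibcd1 and Spink8 stood 2.78, 2.85 and 2.10 times above it in DG, and reached 1.5 times in 12, 12 and 11 of 12 AOIs there. Prox1 reached 1.5 times in 12 of 12 FCT AOIs and Wfs1 in 11 of 12 AOIs of each cortical region. The lowest was Dsp, which reached it in 0 of 12 AOIs in CT and 3 of 12 in CA, while Fibcd1 reached it in 5 of 12 CT AOIs and C1ql2 in 6 of 12 CA AOIs.

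**Figure D1:**
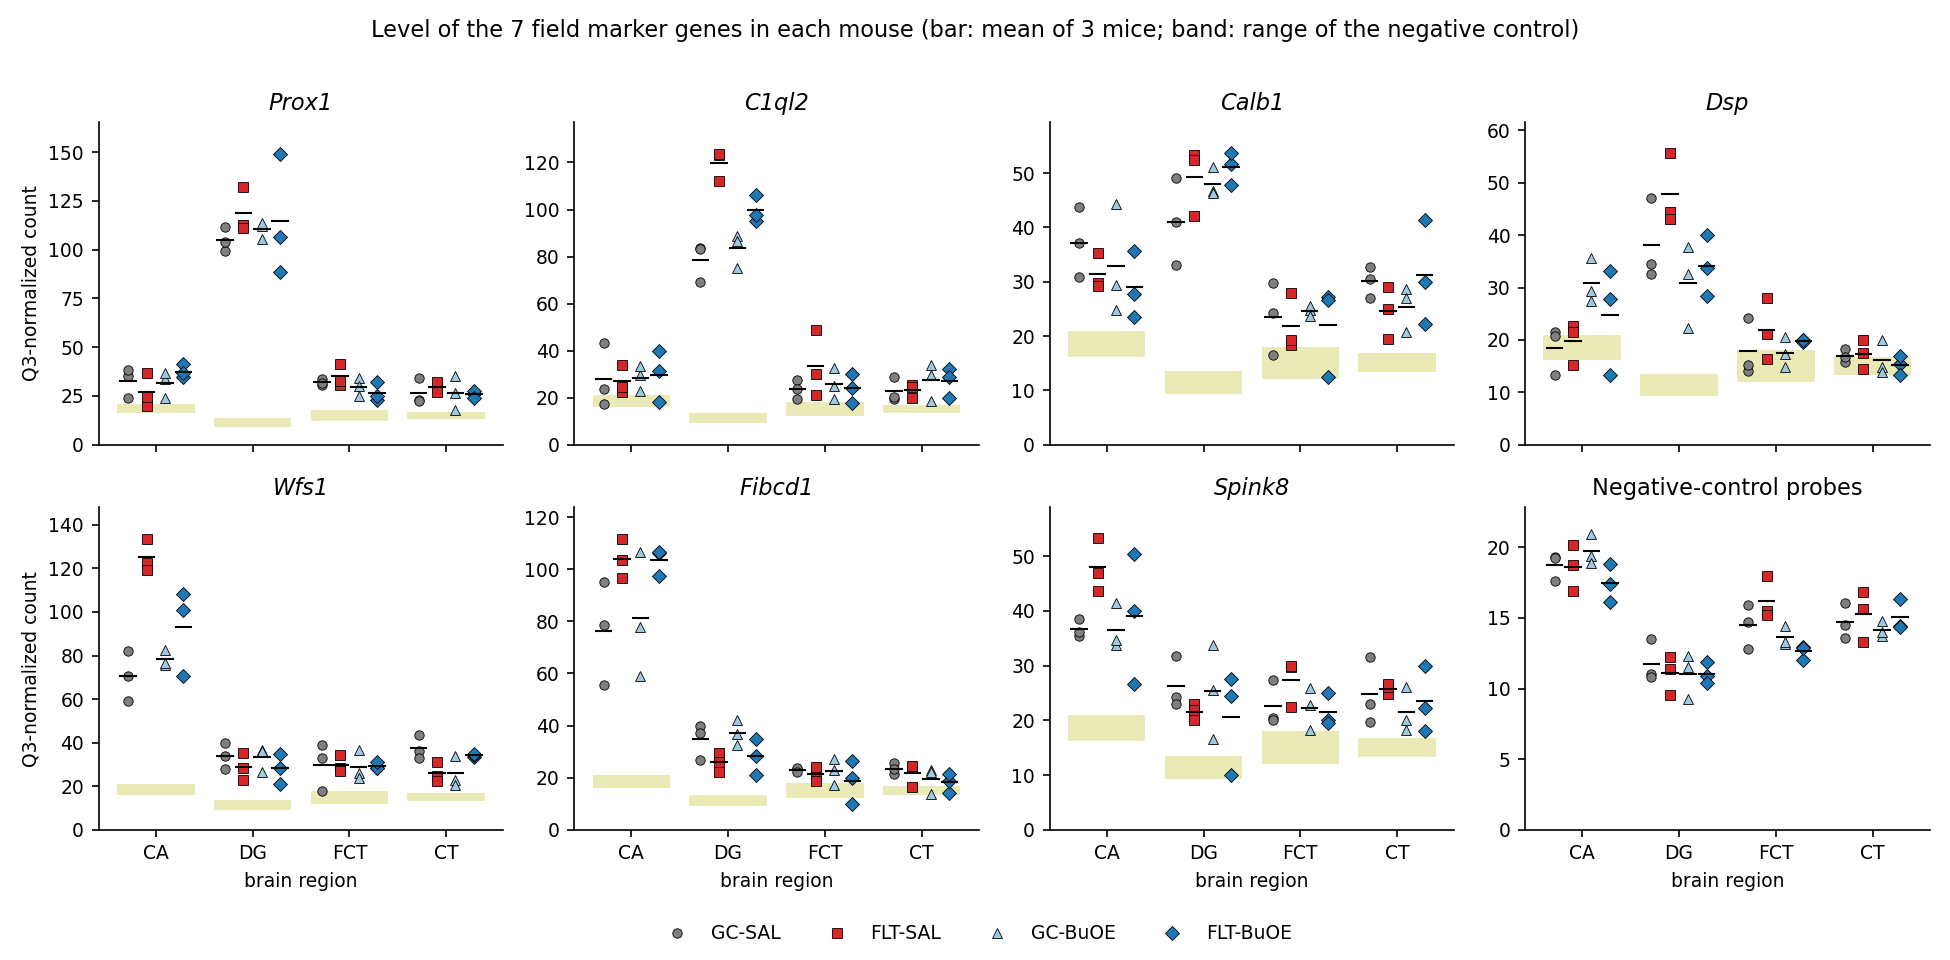
Q3-normalized count of each gene (y axis, linear from 0) in the 4 regions (x axis), 1 point per mouse, colours and symbols for the 4 groups, bars for the mean of 3 mice, and a yellow band for the range of the negative-control probes over the 12 AOIs of a region. The DG points of Prox1 and C1ql2 stand at 88.4 and 69.0 or above, and the FLT-SAL squares of Wfs1 in CA stand at 119 or above while GC-SAL circles reach 82.0.

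In a limma fit over the 48 AOIs with the mouse as a random block, 6 of the 7 genes were called between DG and CA, against a background of 4.1% of all genes (adjusted p under 0.05 over 15782 genes and a difference beyond 1.5-fold). This served as a check of the region labels, since the genes were listed as markers. On the log2(Q3-normalized count + 1) scale, DG exceeded CA by 1.79 (SE 0.10, limma adjusted p = 1.4e-29) for Prox1 and by 1.75 (SE 0.12, limma adjusted p = 2e-24) for C1ql2. The difference DG minus CA was -1.51 (SE 0.10, limma adjusted p = 6.1e-24) for Wfs1 and -1.503 (SE 0.11, limma adjusted p = 2.3e-21) for Fibcd1. It was 0.69 for Dsp and -0.78 for Spink8, both called, and 0.54 (SE 0.11, limma adjusted p = 1e-04) for Calb1, which passed the p but not the fold. The median of all genes was -0.07. When AOIs were scaled to the negative-control probes instead, that median was 0.64, and the share of called genes that were higher in DG went from 58.7% to 99.7%. The difference of Spink8 was then -0.067 and no longer called, while Prox1, C1ql2, Dsp, Wfs1 and Fibcd1 stayed called in the same direction and Calb1 became called.

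Against the 2 cortical regions together, 4 of the 7 genes were called in DG (Prox1, C1ql2, Calb1 and Dsp, background 5.04%) and 3 in CA (Wfs1, Fibcd1 and Spink8, background 3.42%). The order of the regions below the leading field was not resolved for most genes. Wfs1 did not separate DG from the 2 cortical regions (log2 difference 0.04, SE 0.09, limma adjusted p = 0.81), nor did Spink8 (-0.045, SE 0.10, limma adjusted p = 0.83). Prox1 and C1ql2 did not separate CA from cortex (0.13 and 0.11, limma adjusted p = 0.27 and 0.45). Fibcd1 was 0.56 higher in DG than in cortex (SE 0.10, limma adjusted p = 2e-06), short of the fold threshold. Calb1 and Dsp were 0.36 and 0.33 higher in CA than in cortex (limma adjusted p = 0.0033 and 0.017), also short of it.

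The comparison of FLT-SAL with GC-SAL sets flown against ground mice, both given saline. Flight cannot be told apart in it from slide and return to Earth. In CA, Wfs1 was 1.77-fold higher in FLT-SAL than in GC-SAL. The 3 GC-SAL mice had 70.8, 82.0 and 59.3 Q3-normalized counts of Wfs1, and the 3 FLT-SAL mice had 122, 133 and 119. The groups did not overlap, and the lowest flight mouse stood well above the highest ground mouse. The log2 fold change was 0.83 (SE 0.17, limma adjusted p = 0.024), and Wfs1 was 1 of 22 genes called in CA (0.139% of genes).

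Fibcd1 and Spink8 lay on the same side in CA without passing the test. Fibcd1 had 55.4, 95.3 and 78.6 Q3-normalized counts in the GC-SAL mice and 96.5, 104 and 112 in the FLT-SAL mice. Its groups were separated by little more than 1 count, and its log2 fold change was 0.47 (SE 0.18, limma adjusted p = 0.51). Spink8 had 35.4, 36.2 and 38.5 in the GC-SAL mice and 43.6, 53.4 and 47.0 in the FLT-SAL mice, a log2 fold change of 0.37 (SE 0.22, limma adjusted p = 0.82). The flight mice were thus all higher for 3 of 3 CA genes, a separation shown by 7.55% of all genes in CA. For these single genes an exact permutation test of 3 against 3 mice, two-sided, gave p = 0.1 each, the smallest it allows.

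The call of Wfs1 in CA depended on the mice included and on the processing. It was lost when FLT-SAL mouse 1, 2 or 3 was left out (limma adjusted p = 0.15, 0.27 and 0.09, log2 fold changes 0.84, 0.78 and 0.86) and when GC-SAL mouse 1 or 3 was left out (limma adjusted p = 0.069 and 0.13, log2 fold changes 0.83 and 0.71). It was kept without GC-SAL mouse 2 and without each of the 6 BuOE mice. On raw counts Wfs1 was also called by edgeR's quasi-likelihood test (log2 0.81, adjusted p = 0.0053) and by DESeq2 (log2 0.81, adjusted p = 0.043). Its call was lost with scaling to the negative-control probes and in a limma fit without the trend over all genes (limma adjusted p = 0.82).

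In DG, C1ql2 was 1.52-fold higher in FLT-SAL than in GC-SAL. The GC-SAL mice had 69.0, 83.8 and 83.1 Q3-normalized counts of C1ql2 and the FLT-SAL mice 123, 112 and 124. Every flight mouse was above every ground mouse. The log2 fold change was 0.60 (SE 0.14, limma adjusted p = 0.038), just past the fold threshold, and C1ql2 was 1 of 42 genes called in DG (0.266% of genes).

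The other dentate genes did not pass the test. Prox1 had 99.4, 112 and 104 Q3-normalized counts in the GC-SAL mice and 113, 111 and 132 in the FLT-SAL mice, and the groups overlapped (log2 fold change 0.17, SE 0.15, limma adjusted p = 0.91). Calb1 had 33.1, 41.0 and 49.0 in the GC-SAL mice and 53.4, 52.5 and 42.2 in the FLT-SAL mice (0.27, SE 0.18, limma adjusted p = 0.84). Dsp had 34.5, 32.6 and 47.0 in the GC-SAL mice and 44.5, 43.1 and 55.8 in the FLT-SAL mice (0.33, SE 0.21, limma adjusted p = 0.80). C1ql2 was thus the 1 of 4 dentate genes whose groups did not overlap, a separation shown upward by 7.39% of all genes in DG. The median log2 fold change of the 4 genes was 0.30, against -0.007 over all genes.

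The call of C1ql2 was lost when FLT-SAL mouse 1, 2 or 3 was left out (limma adjusted p = 0.19, 0.11 and 0.29, log2 fold changes 0.58, 0.65 and 0.58) and when GC-SAL mouse 1 or 3 was left out (limma adjusted p = 0.33 and 0.062, log2 fold changes 0.51 and 0.65). It was kept without GC-SAL mouse 2 and without each BuOE mouse. On raw counts it was also called by edgeR's quasi-likelihood test (log2 0.60, adjusted p = 0.012) and by DESeq2 (log2 0.60, adjusted p = 0.01).

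Within a single AOI, the ratio of 2 genes does not depend on how the AOI was scaled. The ratio of C1ql2 to Prox1 in DG was 1.01 ± 0.0783 (SD, n = 3) in the FLT-SAL mice and 0.747 ± 0.0517 in the GC-SAL mice, without overlap (exact permutation p = 0.1, two-sided, the smallest 3 against 3 allows). The ratio of C1ql2 to Calb1 was 2.46 ± 0.418 against 1.94 ± 0.215, also without overlap (exact permutation p = 0.1). The ratios of Calb1 and of Dsp to Prox1 overlapped (exact permutation p = 0.8 and 0.5), and that of C1ql2 to Dsp was not taken. In CA, Wfs1 over Spink8 was 2.62 ± 0.169 in the FLT-SAL mice and 1.93 ± 0.367 in the GC-SAL mice, without overlap (exact permutation p = 0.1), while Wfs1 over Fibcd1 overlapped (1.21 ± 0.121 against 0.964 ± 0.277, exact permutation p = 0.3). Fibcd1 over Spink8 overlapped too (exact permutation p = 0.8). With 3 mice a group these p-values cannot go below 0.05, and such a ratio does not show which gene of a pair changed. Background was not removed from the counts, which dampens the change of a gene near it, such as Spink8 in CA (2.16 times the negative control). A ratio can therefore differ even where both genes changed by the same factor. The ratios reuse the counts behind the calls of Wfs1 and C1ql2, so they are a description and not separate support. The share of all gene pairs with such a separation was not computed.

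Outside the field they mark, no gene passed the test in this comparison. In DG the 3 CA genes had lower flight means, with log2 fold changes of -0.23 for Wfs1, -0.40 for Fibcd1 and -0.26 for Spink8 (limma adjusted p = 0.93, 0.74 and 0.93). Spink8 in DG, at 20.0 to 23.0 in FLT-SAL and 23.0 to 31.7 in GC-SAL, had groups that just missed each other, as 7.45% of all genes did downward. In CA the 4 dentate genes stood between -0.26 for Prox1 and 0.10 for Dsp. In CT, Wfs1 was lower in every FLT-SAL mouse (31.3, 24.5 and 22.6) than in every GC-SAL mouse (36.4, 33.0 and 43.8), with a log2 fold change of -0.52 (SE 0.20, limma adjusted p = 0.82). Such a downward separation was shown by 5.23% of all genes in CT. The CT AOI of GC-SAL mouse 1 was unusual, with 140 nuclei, or 9.57 per 10000 µm². GC-SAL mice 2 and 3 had 23.6 and 24.4 per 10000 µm² in CT. Every CT comparison with GC-SAL in this report includes that AOI, and its part in the differences was not tested. In FCT none of the 7 genes was called by limma, edgeR or DESeq2. There 0 of 7 had an unadjusted limma p under 0.05, against 5.66% of all genes. The genes called in all were 8 in FCT (0.0507%) and 14 in CT (0.0887%).

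**Figure D2:**
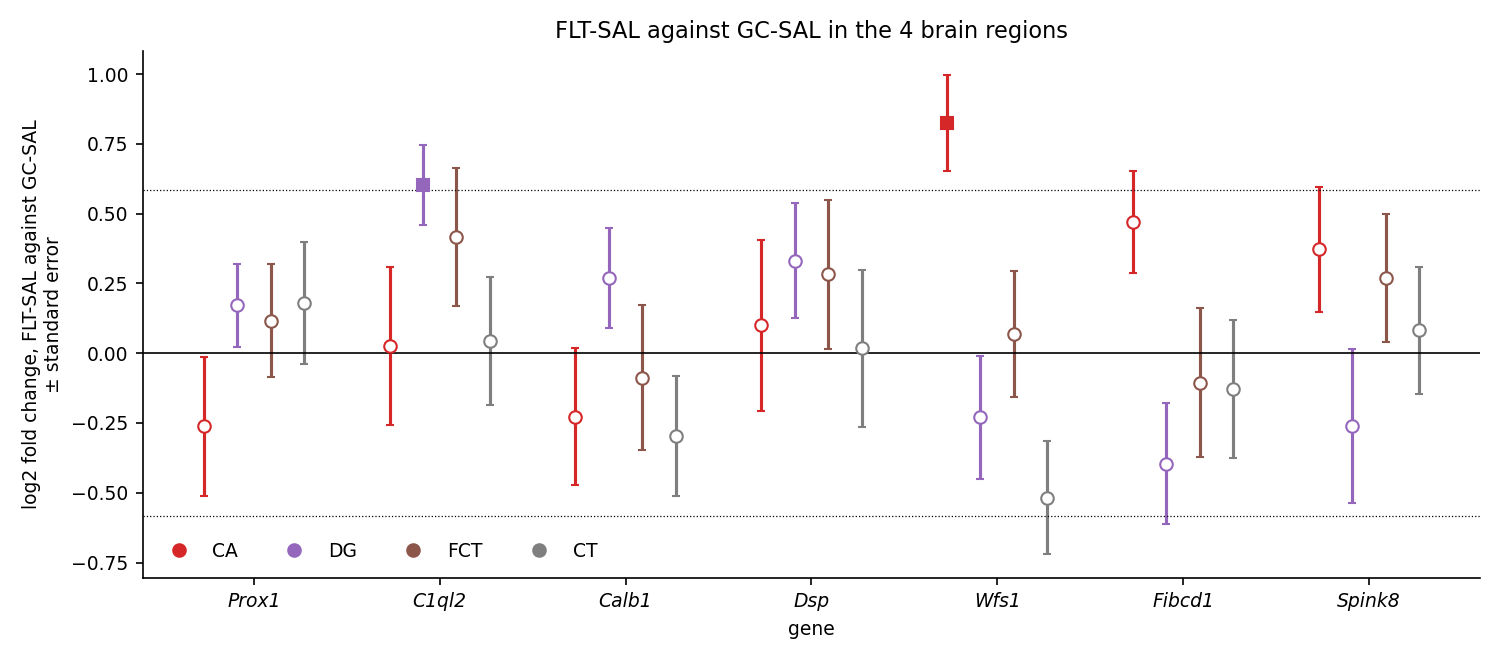
Log2 fold change of FLT-SAL against GC-SAL (y axis, log2 scale, points with standard error bars) for each of the 7 genes (x axis) in the 4 regions. Wfs1 stands at 0.83 in CA and at -0.52 in CT, and C1ql2 stands at 0.60 in DG and near 0 in CA (0.03) and CT (0.05).

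Whether the flight difference itself differed between regions was tested in the fit over 48 AOIs. No gene of the 15782 was called by limma for DG against CA (0%), and 2 of the 7 genes (Wfs1 and Fibcd1) were under an unadjusted 0.05. The share of all genes under that unadjusted threshold was not computed for this comparison. For Wfs1 the flight difference in DG minus that in CA was -1.05 (SE 0.30, limma adjusted p = 0.79), and for Fibcd1 it was -0.87 (SE 0.32, limma adjusted p = 0.86). For C1ql2 it was 0.58 (SE 0.34, limma adjusted p = 0.93). The largest region difference among the 7 genes was that of Wfs1 in CT minus CA, at -1.34 (SE 0.30, limma adjusted p = 0.08). No flight difference of these genes was therefore shown to be particular to a region after adjustment. The DG minus CA values were positive for 4 of the 7 genes, the dentate genes, and negative for the 3 CA genes. The share of all genes with a positive DG minus CA value was not computed.

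BuOE was given to ask whether a superoxide dismutase mimic alters the response to flight. Probe-count totals were lower in every FLT-BuOE AOI than in every FLT-SAL AOI of the same region. The part of depth in this comparison was not tested. Flown mice given BuOE had less Wfs1 in CA than flown mice given saline in every case, but the difference did not pass the test. The FLT-BuOE mice had 70.4, 108 and 101 Q3-normalized counts against 122, 133 and 119, a log2 fold change of -0.44 (SE 0.17, limma adjusted p = 0.93). A downward separation of this kind was shown by 7.45% of all genes in CA, where 0.00634% of genes were called. Spink8 (-0.33, SE 0.22) overlapped, and Fibcd1 was level (-0.005, SE 0.18, limma adjusted p = 1). The 3 FLT-BuOE mice had 106, 107 and 97.5 of Fibcd1, within the span of the FLT-SAL mice.

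In DG, C1ql2 was 95.1, 106 and 97.8 Q3-normalized counts in the FLT-BuOE mice, below all 3 FLT-SAL mice (log2 fold change -0.26, SE 0.14, limma adjusted p = 0.83). Dsp was 28.4, 33.8 and 40.02, also below all 3 FLT-SAL mice (-0.48, SE 0.21, limma adjusted p = 0.78). At an unadjusted limma threshold of 0.05, 1 of the 7 genes passed in CA (Wfs1) and 1 in DG (Dsp). Of all genes, 4.96% passed it in CA and 6.2% in DG. C1ql2 and Dsp were 2 of 4 dentate genes separated downward in this comparison, as 6.75% of all genes in DG were, and limma called 0% of genes there. Prox1 spread widely in FLT-BuOE, at 88.4, 106 and 149, and differed by -0.08 (SE 0.15). Calb1 differed by 0.055 (SE 0.18). In CT, Wfs1 was 33.6 to 34.6 in FLT-BuOE, above every FLT-SAL mouse (log2 fold change 0.39, SE 0.20, limma adjusted p = 0.89), as 5.38% of all genes in CT were. None of the 7 genes was called in the cortical regions, where 0.0317% (FCT) and 0.0697% (CT) of genes were.

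Among BuOE-treated mice, flight against ground called none of the 7 genes by limma, edgeR or DESeq2. Limma called 0.0444% (CA), 0.108% (DG), 0.019% (FCT) and 0.0127% (CT) of all genes. Under an unadjusted limma threshold of 0.05 were 1 of the 7 in CA (Fibcd1), 1 in CT (Wfs1) and 0 elsewhere. Of all genes, 7.52% (CA), 8.24% (DG), 7.17% (FCT) and 6.65% (CT) were under it. C1ql2 in DG was above all 3 GC-BuOE mice (88.9, 75.04 and 86.7) in every FLT-BuOE mouse, by 0.26 on the log2 scale (SE 0.14, limma adjusted p = 0.65), a separation shown by 5.16% of all genes. Fibcd1 in CA differed by 0.39 (SE 0.18, limma adjusted p = 0.65), with overlap, and Wfs1 in CA by 0.22 (SE 0.17, limma adjusted p = 0.82). Wfs1 in CT differed by 0.42 (SE 0.20, limma adjusted p = 0.73).

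On the ground, BuOE against saline called none of the 7 genes by limma, edgeR or DESeq2. Limma called 0% of genes in CA, DG and CT and 0.00634% in FCT. Under an unadjusted limma threshold of 0.05 were 1 of the 7 in CA (Dsp) and 1 in CT (Wfs1). Of all genes, 5.6% in CA and 3.78% in CT were under it. Wfs1 in CA differed by 0.16 (SE 0.17) and C1ql2 in DG by 0.09 (SE 0.14). Dsp in CA, where it was near the negative control, was 27.4, 29.4 and 35.7 in GC-BuOE and 21.6, 13.3 and 20.8 in GC-SAL, without overlap as for 4.54% of all genes (0.72, SE 0.31, limma adjusted p = 0.87). The difference of Wfs1 in CT was -0.55, with overlap (SE 0.20, limma adjusted p = 1).

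The difference of the flight effects in BuOE and in saline mice, the interaction, was -0.60 for Wfs1 in CA (SE 0.24, limma adjusted p = 0.91), -0.35 for C1ql2 in DG (SE 0.20, limma adjusted p = 0.82) and 0.94 for Wfs1 in CT (SE 0.29, limma adjusted p = 0.71). None of the 7 genes was called by limma, edgeR or DESeq2 in any region. Limma called 0.00634% of all genes in CA and in FCT, 0% in DG and 0.019% in CT. Wfs1 alone among the 7 was under an unadjusted limma threshold of 0.05 in CA and in CT. The share of all genes under it was not computed for the interaction. A difference between the saline and BuOE responses was thus not shown for these genes. Averaged over both treatments, an alternative chosen after seeing the data, flight against ground was 0.52 for Wfs1 in CA (SE 0.12, limma adjusted p = 0.024) and 0.43 for C1ql2 in DG (SE 0.10, limma adjusted p = 0.026), both below the fold threshold. In this average limma called none of the 7 genes, and 0.158% (CA), 0.12% (DG), 0.127% (FCT) and 0.108% (CT) of all genes. Fibcd1 in CA was at 0.43 in the same average (SE 0.13, limma adjusted p = 0.14).

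**Figure D3:**
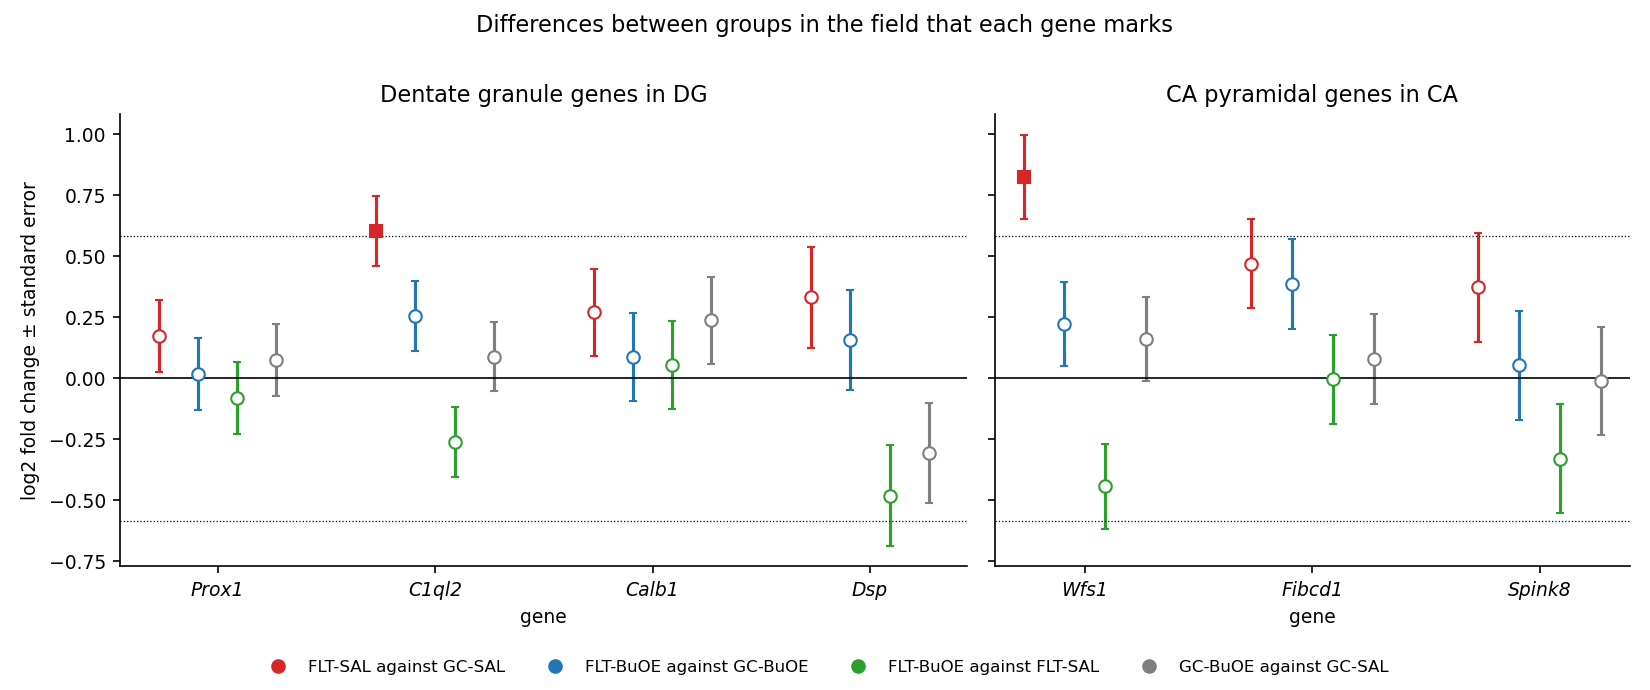
Log2 fold change with standard error (y axis, log2 scale) of the 4 dentate genes in DG and the 3 CA genes in CA (x axis) for the 4 comparisons of groups. Wfs1 at 0.83 and C1ql2 at 0.60 in FLT-SAL against GC-SAL are the 2 called values, and in FLT-BuOE against FLT-SAL they stand at -0.44 and -0.26.

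Further genes of the same fields were read from lists taken from general knowledge of hippocampal cell types, also with earlier results of these data known. Of 13 other dentate granule genes, 8 were called higher in DG than in CA (background 2.41% higher), with a median log2 difference of 0.97. In FLT-SAL against GC-SAL in DG, 10 of the 13 had positive values, as 48.7% of all genes did. None was called by limma, 4 had an unadjusted limma p under 0.05 (7.41% of all genes in DG did), and the median was 0.14 against -0.007 over all genes. Npnt, an extracellular matrix protein, was at 0.53 (SE 0.21, limma adjusted p = 0.49) and Pdzd2, a PDZ-domain protein, at 0.51 (SE 0.17, limma adjusted p = 0.28). All 6 other CA1 pyramidal genes were called lower in DG than in CA (background 1.69% lower). In CA, 5 of these 6 had positive flight values, as 53.5% of all genes did. None was called by limma, 2 had an unadjusted limma p under 0.05 (6.73% of all genes in CA did), and the median was 0.11 against 0.02 over all genes. The transcription factor Pou3f1 was at 0.52 (SE 0.17, limma adjusted p = 0.29) and Mpped1 at 0.36 (SE 0.15, limma adjusted p = 0.65).

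The lists of neighbouring fields had lower medians in CA than the other CA1 genes (0.11), by little for CA3 and mossy cell genes. Many of their genes were near background there. The CA2, CA3 and mossy cell genes averaged 0.94 (Cpne4) to 2.38 (Bok) times the negative control in CA. Rgs14 stood at 1.36 times, Pcp4 at 1.74, Nectin3 at 1.32 and Calb2 at 1.15. Of 6 CA2 genes, 3 were positive and the median was -0.025 in CA, while in DG 5 of 6 were positive with a median of 0.17. Of all genes, 53.5% were positive in CA and 48.7% in DG. In CA Rgs14, a regulator of G protein signalling, was at -0.45 (SE 0.27, limma adjusted p = 0.84) and Pcp4 at 0.34 (SE 0.27, limma adjusted p = 0.90). Of 6 CA3 and mossy cell genes, 4 were positive in CA with a median of 0.09 and 1 in DG with a median of -0.20, and in CA Calb2 and Nectin3 were at 0.32 and 0.29 (limma adjusted p = 0.94 each). Of 8 genes of immature granule cells and proliferation, 3 were in the tables, and in DG Neurod1 was at 0.26 and the migrating-neuron protein Dcx at 0.05 (limma adjusted p = 0.93 and 0.99). No gene of these 3 lists was called by limma, and 0 had an unadjusted p under 0.05 in these fields.

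**Figure D4:**
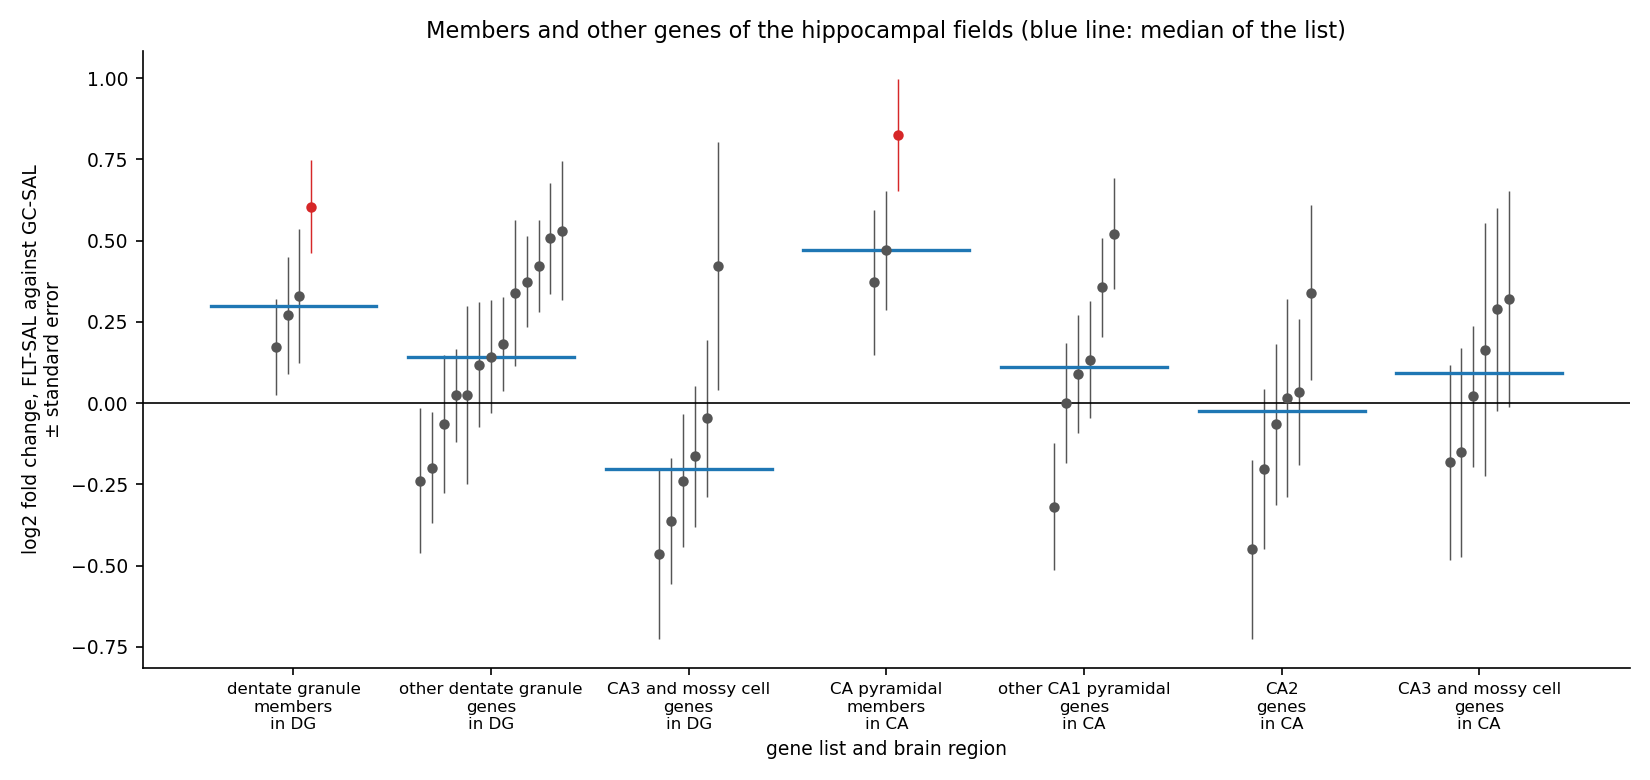
Log2 fold change of FLT-SAL against GC-SAL with standard error (y axis, log2 scale) for single genes, grouped on the x axis by gene list and brain region, with a blue line at each list's median. The members' medians are 0.47 in CA and 0.30 in DG, and those of the other CA1 and other dentate granule genes are 0.11 and 0.14.

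Some summed marker lists of other cell types also differed between the same AOIs. The summed level of 6 GABAergic interneuron genes did not overlap between FLT-SAL and GC-SAL in CA (204.8 to 230.9 against 175.3 to 195.7) or in DG (223.8 to 268.7 against 183.6 to 207.6). That of 6 astrocyte genes was also higher in every FLT-SAL AOI, in CA (289.6 to 320.2 against 258.6 to 285.9) and in DG (268.3 to 297.3 against 252.2 to 258.1). The sum of the other CA1 pyramidal genes was 540.8 to 572.6 against 469.9 to 505.1 in CA, while that of the other dentate granule genes in DG overlapped (807.7 to 962.0 against 669.4 to 811.5). Of 12 lists summed, 3 were higher and 2 lower without overlap in CA, and 2 were higher and none lower in DG. How often sums of other genes separate in this way was not computed. The lower ones in CA were the 2 choroid plexus genes (42.1 to 51.8 against 63.1 to 69.7) and the 3 genes of immature granule cells and proliferation (63.6 to 73.9 against 74.3 to 78.6). These genes were near the negative control in CA, at a mean of 1.87 (Kl), 1.18 (Aqp1), 1.31 (Dcx), 1.21 (Neurod1) and 1.43 (Mki67) times it. Some genes of the higher lists were as low, such as the interneuron genes Pvalb (1.29) and Npy (1.32). No gene of these lists was called by limma in FLT-SAL against GC-SAL in CA or DG. The part of these other cells in the levels of Wfs1 and C1ql2 was not tested.

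The density of nuclei differed between the DG groups. It was 45.9 to 63.4 nuclei per 10000 µm² in the FLT-SAL AOIs and 38.5 to 42.7 in the GC-SAL AOIs of DG, without overlap, and 45.1 to 49.8 in FLT-BuOE against 40.2 to 49.7 in GC-BuOE. In CA the density was 19.6 to 26.5 in FLT-SAL and 19.2 to 21.6 in GC-SAL, with overlap. Without the AOI of lowest density among the 6 saline AOIs, GC-SAL mouse 1 in CA and GC-SAL mouse 3 in DG, which repeats 2 of the left-out mice above, Wfs1 stood at 0.83 (limma adjusted p = 0.069) and C1ql2 at 0.65 (limma adjusted p = 0.062). The part of nuclear density in these differences was not tested.

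**Figure D5:**
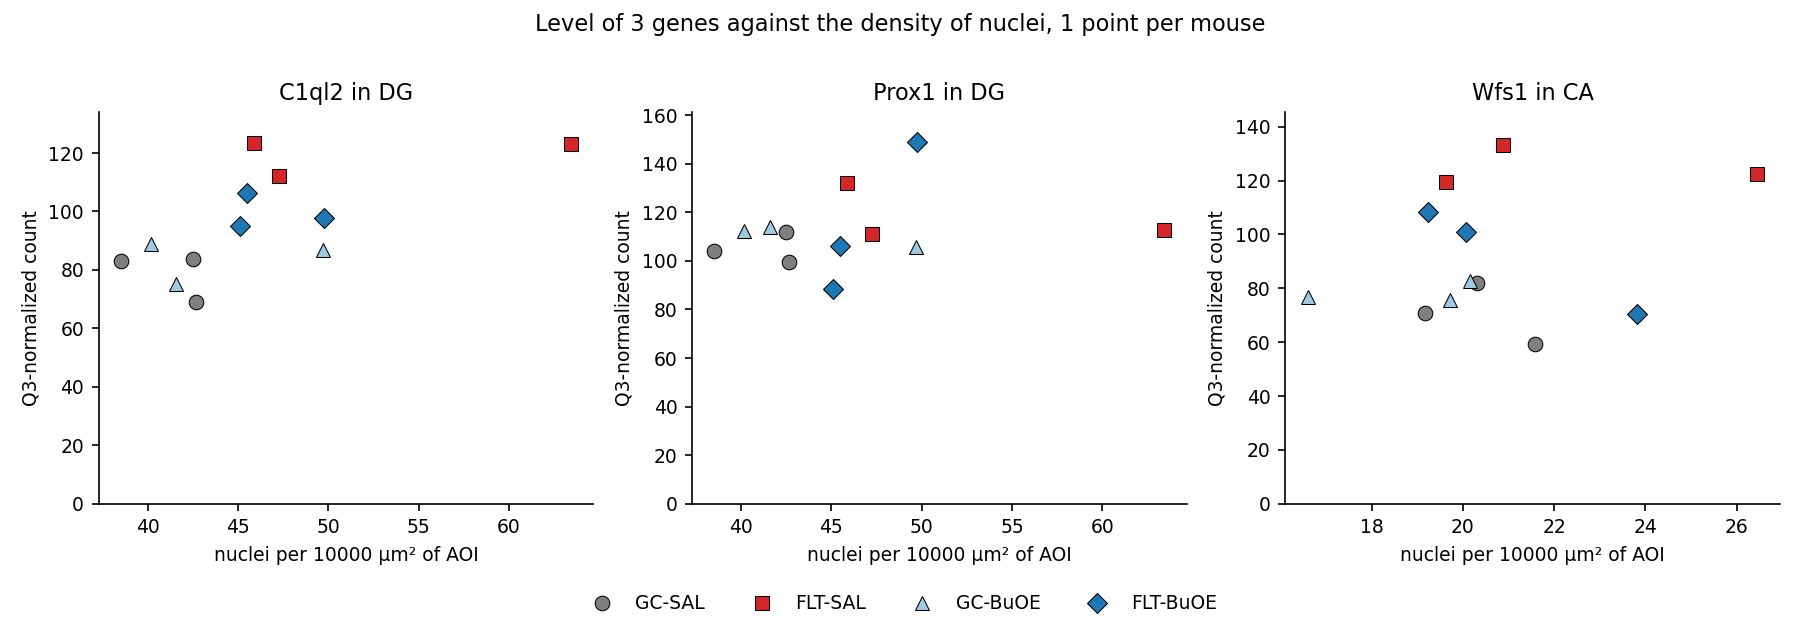
Q3-normalized count of 3 of the genes (y axis, linear from 0) against nuclei per 10000 µm² of AOI (x axis), 1 point per mouse, with symbols for the 4 groups. In DG the FLT-SAL points lie at 45.9 or more nuclei and the GC-SAL points at 42.7 or fewer, while in CA the ranges of the same groups overlap.

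The genes with the most similar pattern over the 48 AOIs were found by the Pearson correlation of log2 levels, given as a description because AOIs of 1 region and 1 mouse share depth and composition. Rfx3, a ciliary transcription factor, and Sema5a, a semaphorin, were among the 3 most alike for Prox1 (r = 0.933 and 0.911), for C1ql2 (0.925 and 0.921) and for Dsp (0.782 and 0.789). Calb1 was most like Zfp207 (0.829), Ppfia2 (0.811) and Jph1 (0.766). Wfs1 was most like Fibcd1 (0.877), Gm2115 (0.87) and the potassium channel subunit Kcnab1 (0.847). Fibcd1 was most like Arpc5 (0.93), the ryanodine receptor Ryr3 (0.918) and Mdga1 (0.891), and Spink8 was most like Wfs1 (0.763), Kcnq3 (0.729) and Exoc6b (0.728).

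Within 1 field these likenesses were weaker. Over the 12 CA AOIs, Wfs1 and Fibcd1 had r = 0.57, and r = 0.18 once each group's mean was removed. Wfs1 and Spink8 had r = 0.44, and -0.17 within groups. Over the 12 DG AOIs, C1ql2 and Calb1 had r = 0.55 and 0.48 within groups, and Prox1 and C1ql2 had r = 0.35 and 0.16.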

How the data were processed

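Probe counts and normalized values of 48 AOIs (12 mice, 4 regions) were used. The authors made the deposited probe counts with the GeoMx NGS Pipeline 2.3.4, and the deposited Q3-normalized signal values by scaling each AOI to a common upper quartile (40.02). The authors' own comparison tables hold fold changes, p-values and q-values and were not used. The 7 genes and all lists were chosen with earlier results of these data known. Group comparisons used limma 3.58.1 (R 4.3.3) on log2(Q3-normalized count + 1) with a mean-variance trend, 1 fit per region over 12 AOIs and 4 groups, with Benjamini-Hochberg adjustment over 15782 genes. The pseudocount slightly understates changes of low genes. Regions were compared over 48 AOIs with the mouse as a random block (correlation 0.026). A call needed adjusted p under 0.05 and, except for interactions, a difference beyond 1.5-fold. Alternatives used edgeR 4.0.16 and DESeq2 1.42.0 on counts recovered from the steps of the Q3 values (99.98% of values whole within 0.02), other scalings, filters and left-out mice. The fits were tested on simulated data. Named besides the 7 genes were, per gene, the 3 most correlated genes and, per field list, the 2 with the largest flight difference. 1 gene that this rule names is not reported here.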

Additional observations from a re-analysis of the deposited data

Results flagged for a closer look

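Pairs of regions were singled out where the 3 mice of 1 group were all above those of the other in 1 region and all below them in another. This choice fixed the sign of each difference given here, and the p-values do not allow for it. The share of all genes with such opposed separations was not computed. Wfs1 in FLT-SAL against GC-SAL had a log2 fold change of 0.825 in CA and -0.517 in CT, and the difference of the 2 was -1.34 (SE 0.30, limma adjusted p = 0.08). Wfs1 in FLT-BuOE against FLT-SAL was at -0.443 in CA and 0.39 in CT, and that difference was not tested. Spink8 in FLT-SAL against GC-SAL was at 0.372 in CA and -0.262 in DG, with a difference of -0.63 (SE 0.34, limma adjusted p = 0.93). In DG, where Spink8 averaged 2.10 times the negative control, its highest FLT-SAL value was 22.98 and its lowest GC-SAL value 23.01. An opposed response of Spink8 was thus not shown. Groups of 3 mice were not tested for single outlying samples.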

How the results depend on the processing

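Flight against ground in saline mice called 1 of the 7 genes in CA and 1 in DG. In CA the count was 0 with scaling to the negative-control probes (Wfs1 0.835, limma adjusted p = 0.11), without the mean-variance trend (adjusted p = 0.82), with flight averaged over both treatments and without the saline AOI with the fewest nuclei per area, and 0 to 1 over the left-out mice. In DG it was 0 with a pseudocount of 5 (C1ql2 0.58, limma adjusted p = 0.036, under the fold threshold), with scaling to the negative-control probes (0.69, adjusted p = 0.58), without the trend (adjusted p = 0.68), with flight averaged and without the saline AOI with the fewest nuclei, and 0 to 1 over the left-out mice. The cause was not tested. The averaging and the nuclei alternatives were chosen after seeing the data, and the latter is the same fit as leaving out GC-SAL mouse 1 in CA or mouse 3 in DG. Over the left-out mice Wfs1 ranged from 0.706 to 0.936 and C1ql2 from 0.514 to 0.652.

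Genes called in CA numbered 22, against 34 with the low-value filter, 46 with the 2 groups alone, 48 by edgeR, 52 with the replicate block, 2 with negative-probe scaling and 0 without the trend. In DG they numbered 42, against 71 by edgeR, 3 with negative-probe scaling and 0 without the trend. The share called higher in DG was 92.9%, and 33.3% with negative-probe scaling; in CA it was 90.9% and 50%. Between DG and CA, Spink8 was not called in the GC-SAL mice alone or with negative-probe scaling.

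Small values turned sign. Fibcd1 in FLT-BuOE against FLT-SAL in CA (-0.005) was 0.086 with negative-probe scaling, 0.032 by edgeR, 0.037 by DESeq2 and -0.056 to 0.047 over the left-out mice. Spink8 in GC-BuOE against GC-SAL in CA (-0.011) was 0.004 by edgeR, 0.005 by DESeq2 and -0.101 to 0.043 over the left-out mice. Over the left-out mice the ranges were -0.285 to 0.088 for Prox1 and -0.052 to 0.115 for Calb1 (FLT-BuOE against FLT-SAL, DG), -0.136 to 0.286 for Fibcd1 in CA and -0.001 to 0.164 for C1ql2 in DG (GC-BuOE against GC-SAL), and -0.151 to 0.297 for Spink8 in CA, -0.187 to 0.186 for Prox1 in DG and -0.055 to 0.315 for Dsp in DG (FLT-BuOE against GC-BuOE).

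Over all pairs of groups and regions, deviations of same-numbered mice had r from -0.179 to 0.125, with 1 of 72 pairs above 0.1. The numbers were therefore not taken as pairs in the main fits. Yet 33 of 48 AOIs correlated best with their own number, with only 3 numbers to match. Whether mice of 1 number share an effect was not tested. With the replicate number as a block, Wfs1 (limma adjusted p = 0.004) and C1ql2 (adjusted p = 0.028) were called and no other of the 7 genes was. The raw count of Wfs1 in CA was 36 to 155, which limits its precision.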
